A study of Homo sapiens with 7 samples.

Results

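The 10 genes described here encode the main chaperones and proteases of the mitochondrial matrix and inner membrane: HSPD1, HSPE1, HSPA9, DNAJA3, TRAP1, LONP1, CLPP, CLPX, AFG3L2 and YME1L1. They were chosen by name, matched to the symbol of each row of the count tables, and all 10 were found and tested among 13566 genes tested in all. RNA came from the established human neuroglioma cell line H4, here carrying Cry2Olig-PKR. This protein joins a light-clustering domain to PKR, a kinase that phosphorylates eIF2, the first step of the integrated stress response (ISR). All groups carry this protein and differ in the length of continuous blue light: 0 (unlit), 60, 120, 240, 480, 600 or 720 min, followed at once by lysis, to follow the response over time. Each time has 1 library, and no source used here says whether the cells are 1 clone. Unlit cells kept to the later times and lit cells without the fusion were not analysed here, so light and time in the plate cannot be told apart.

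Most mitochondrial proteins are made in the cytosol and imported unfolded. The matrix chaperone HSPA9 (mtHSP70, or mortalin) pulls them in and starts their folding with the J-protein DNAJA3, and the chaperonin HSPD1 (HSP60) with its lid HSPE1 (HSP10) encloses them while they fold. TRAP1 is the mitochondrial member of the HSP90 family. Proteins that fail are degraded by AAA+ proteases: LONP1 and the CLPX-CLPP complex in the matrix, and AFG3L2 and YME1L1 in the inner membrane, facing the matrix and the intermembrane space. Unfolded protein in the matrix of mammalian cells is known to raise transcripts of HSPD1, HSPE1 and CLPP, and eIF2 phosphorylation with the transcription factor ATF4 is a known route by which mitochondrial stress reaches the nucleus.

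The libraries were made with an adaptation of CEL-Seq2, which reads the 3' ends of transcripts and counts them by unique molecular identifiers (UMIs). The 6 complete tables hold 7048253 to 8911818 transcripts. The table at 480 min stops in alphabetical order after NME1-NME2 and holds 5266123 transcripts, so TRAP1 and YME1L1 are missing there, not 0. A level is given in CPM (a TMM-scaled share of the library's transcripts), and its interval covers counting error only. As shares of the RNA of a lysate, levels do not tell fewer cells from less RNA per cell. The mesenchymal and glial genes VIM (682 to 886 CPM), CD44 (495 to 703 CPM) and SOX9 (44.4 to 96.4 CPM) were present in the 6 complete libraries, NES stood at 0.221 to 1.65 CPM, and the tables used here hold no row for GFAP or S100B. Of genes that mark other cell types, PTPRC, PECAM1, EPCAM, CDH1, RBFOX3 and ALB were each at 0.824 CPM or less, CD3E, CDH5 and HBB have no row, and the neuronal markers SNAP25 and SYT1 ran opposite ways. SNAP25 was highest at 0 min (6.004 CPM) and lower at each later complete library down to 0.396 CPM at 720 min, whereas the synaptic gene SYT1 was lowest at 0 min (45.6 CPM) and highest at 600 min (89.6 CPM). The part of cells with these neuronal transcripts in the results below was not tested.

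The starts of 4 members are shown because the results turn on these genes: HSPE1 with its neighbour HSPD1, the rising LONP1 and HSPA9, and CLPX, the member that peaked in mid-course. Each window runs from 250 bases before to 50 after the annotated start, from RefSeq on GRCh38.p14; the submitters' processing notes name hg19 for the count tables, and only gene names link these builds. The HSPE1 window lies on chr2:197500129-197500428, plus strand. Capitals mark the 204 bases, chr2:197500225-197500428, that it shares with a window of HSPD1 on the minus strand (chr2:197500225-197500524). The pair are divergent genes, and 104 bases lie between these starts.
HSPE1: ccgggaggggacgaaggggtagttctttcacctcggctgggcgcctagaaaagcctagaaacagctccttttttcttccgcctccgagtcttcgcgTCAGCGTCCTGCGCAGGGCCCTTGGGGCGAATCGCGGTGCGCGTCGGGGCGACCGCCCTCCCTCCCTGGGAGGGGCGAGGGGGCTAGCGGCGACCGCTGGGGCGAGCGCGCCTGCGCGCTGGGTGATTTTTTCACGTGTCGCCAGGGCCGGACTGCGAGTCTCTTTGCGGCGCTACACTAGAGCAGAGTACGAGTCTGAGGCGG
In the next 3 windows capitals mark matches to the motifs searched. LONP1 is read from the minus strand of chr19:5720097-5720396, HSPA9 from the minus strand of chr5:138575352-138575651 and CLPX from the minus strand of chr15:65185293-65185592.
LONP1: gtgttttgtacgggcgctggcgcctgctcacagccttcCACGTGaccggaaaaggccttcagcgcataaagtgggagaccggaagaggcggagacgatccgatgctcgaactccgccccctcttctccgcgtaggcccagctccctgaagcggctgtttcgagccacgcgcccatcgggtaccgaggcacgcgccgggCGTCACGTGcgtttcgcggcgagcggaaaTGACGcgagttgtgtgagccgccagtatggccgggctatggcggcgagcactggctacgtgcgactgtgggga
HSPA9: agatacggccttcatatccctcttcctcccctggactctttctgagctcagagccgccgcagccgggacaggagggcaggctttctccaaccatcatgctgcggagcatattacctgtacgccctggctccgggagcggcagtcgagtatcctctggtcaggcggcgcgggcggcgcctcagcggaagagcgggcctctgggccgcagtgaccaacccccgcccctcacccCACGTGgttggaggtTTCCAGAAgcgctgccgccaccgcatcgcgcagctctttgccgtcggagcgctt
CLPX: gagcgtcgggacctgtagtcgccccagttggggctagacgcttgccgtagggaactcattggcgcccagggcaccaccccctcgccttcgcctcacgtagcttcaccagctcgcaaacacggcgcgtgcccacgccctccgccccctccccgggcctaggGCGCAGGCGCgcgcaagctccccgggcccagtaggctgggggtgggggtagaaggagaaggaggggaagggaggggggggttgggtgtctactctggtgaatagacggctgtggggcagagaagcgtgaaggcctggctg
The motifs were searched on both strands of the 10 windows listed for 8 members (HSPD1 and LONP1 have 2 each, which may overlap windows of other genes) and of 35116 promoter windows of the same length. The E-box CACGTG stood in 7.26% of all windows and in a window of HSPD1, HSPE1, HSPA9 and LONP1, the HSPD1 and HSPE1 match being the same bases. The NRF1 core (GCGCA, any base, then GCGC) stood in 5.78% of all windows and in those of HSPD1, HSPE1, DNAJA3, LONP1 (the window not printed) and CLPX; the HSPD1 and HSPE1 match is again the same bases. The letters TGATGNAA, the core of the composite site of C/EBP and ATF factors, stood in 3.62% of all windows and in 0 of the 10 member windows. The heat shock pairs TTCNNGAA and GAANNTTC stood in 7.74% and 6.77% of all windows. TTCNNGAA was found in windows of HSPD1 and HSPA9, and GAANNTTC in that of HSPD1, where the matches overlap. The letters TGACG, found in 24.6% of all windows, stood in those of HSPD1, HSPE1, TRAP1, LONP1 and AFG3L2, and overlap an E-box in LONP1. The full cAMP response element TGACGTCA (1.85%) stood in that of TRAP1. These are matches of letters and not shown to be bound.

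Of the 10 members, HSPA9 and LONP1 rose over the 720 min, CLPX went up and came back, and HSPE1, CLPP and TRAP1 dipped and came part or all of the way back. HSPD1, DNAJA3, AFG3L2 and YME1L1 had neither call. The trend is the fitted log2 change from 0 to 720 min. The bend sets the fitted level at 360 min against the average of the fitted ends, 0 and 720 min, in log2. A positive bend bows upward, such as a rise and return or a rise that levels off. A negative bend bows downward, and neither needs to return to the 0 min level. Both were tested with edgeR's quasi-likelihood test over all genes, with Benjamini-Hochberg adjustment at 0.05. With 1 library per time, the spread in these tests is that of the libraries around the fitted shape, and it may be technical. Rising trends were called for 2 of 10 members, against 3.9% of all genes, and falling trends for 0 of 10, against 2.96% (edgeR; 0 falling at an unadjusted p under 0.05, and 0 with DESeq2). A trend in either direction was called for 2 of 10 members and for 6.86% of all genes. At an unadjusted p under 0.05 (edgeR) the trend took 3 of 10 members, against 23.1% of genes, a share near the background. Upward bends were called for 1 of 10 members, against 17.5% of all genes, and downward bends for 3 of 10, against 13.7%. Bends in either direction thus took 4 of 10 members, against 31.2% of genes, a share near the background. At an unadjusted p under 0.05 (edgeR) the bend also took 4 of 10 members, against 43.4% of genes.

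**Figure D1:**
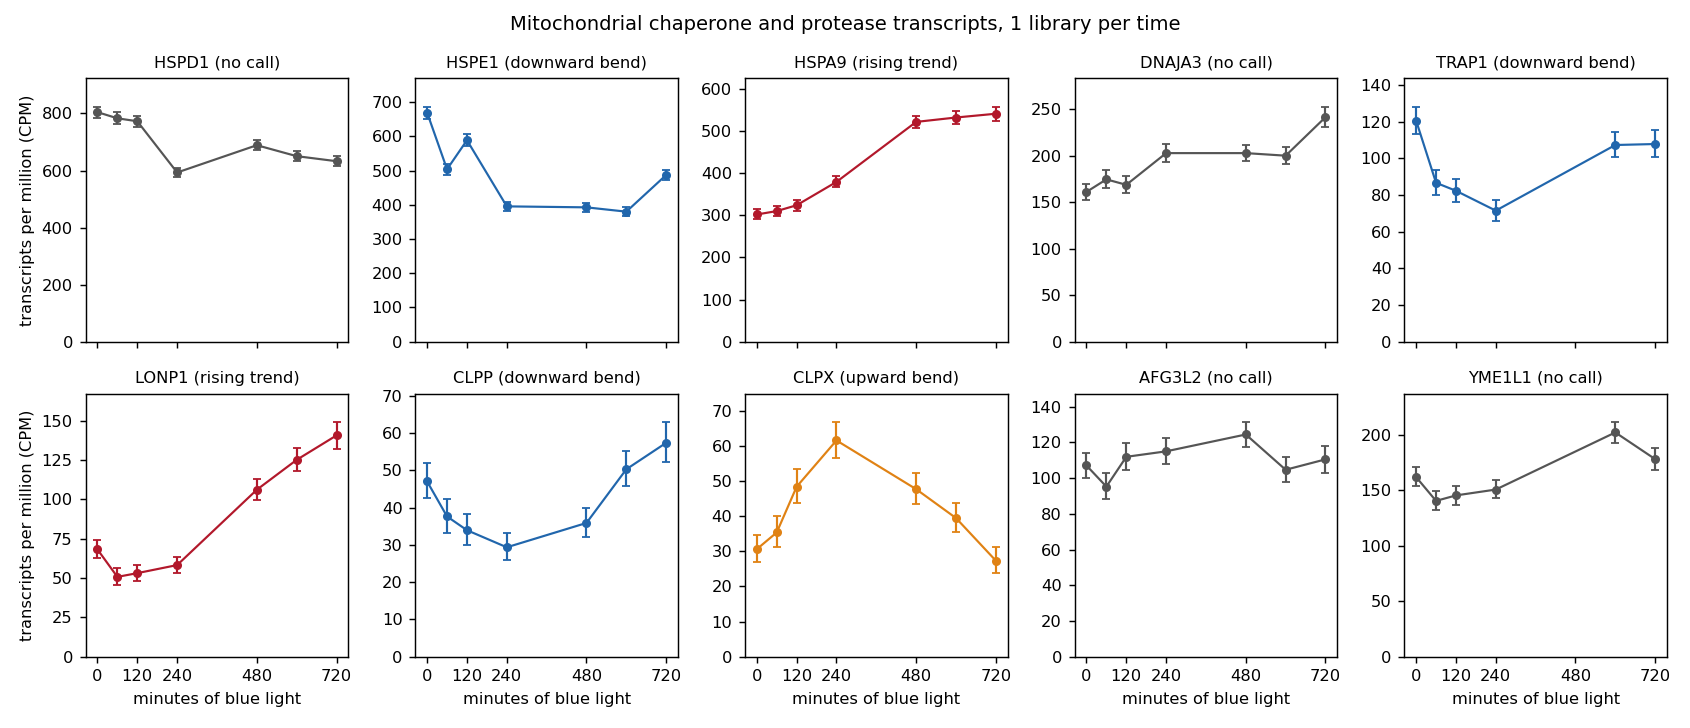
Level of each of the 10 members (vertical axis, CPM, from 0) against minutes of blue light (horizontal axis), 1 library per point, with bars for the 95% Poisson interval of the count; colours and titles give the edgeR call. HSPA9 and LONP1 are highest at 720 min, CLPX is highest and CLPP and TRAP1 lowest at 240 min, and TRAP1 and YME1L1 have no value at 480 min.

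The chaperones were taken by role, starting with HSPA9, the import motor and folding chaperone. Its level was 302 CPM at 0 min, 310 at 60, 323 at 120, 379 at 240, 521 at 480, 531 at 600 and 540 CPM at 720 min. It was lowest in the unlit library, and the 3 latest libraries stood above the 4 earlier ones. The order of its levels was the order of the times, with neighbours within counting error at 0 and 60, at 60 and 120, at 480 and 600 and at 600 and 720 min. HSPA9 rose, with a fitted log2 change over the course of 0.97 ± 0.14 (SE; adjusted p = 0.00564, edgeR). At 720 min it stood at 1.79 times the 0 min level (95% interval 1.71 to 1.88). The collision correction raises the counts of abundant genes such as this one: the trend was 0.59 from UMI counts and 1.32 from read counts, with edgeR adjusted p = 0.00855 and 0.00797. Its call held in all 17 alternatives, with adjusted p = 0.0489 (edgeR) without 600 min. Of the 17, counting the read-through gene HSPE1-MOB4 with HSPE1 does not change the HSPA9 counts.

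DNAJA3, the J-protein that stimulates HSPA9, was the member whose course lay nearest to that of HSPA9, with a root mean square difference of 0.256 between their log2 ratios to 0 min over the 5 lit times of the complete tables. Its level was 161 CPM at 0 min, 175 at 60, 169 at 120, 203 at 240, 203 at 480, 200 at 600 and 242 CPM at 720 min. The last library was the highest, and those at 240, 480 and 600 min did not differ beyond counting error. The fitted change of 0.46 ± 0.16 did not pass (edgeR adjusted p = 0.112). At 720 min it stood at 1.499 times the 0 min level (1.40 to 1.61), just under the 1.5-fold rule used below.

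HSPD1 and HSPE1, the barrel and the lid of the chaperonin, were highest in the unlit library. HSPD1 stood at 805 CPM at 0 min, 783 at 60, 773 at 120, 593 at 240, 689 at 480, 650 at 600 and 633 CPM at 720 min. The 3 earliest libraries stood above the other 4, of which that at 240 min was lowest. Neither the trend (-0.31 ± 0.15, edgeR adjusted p = 0.239) nor the bend (-0.16 ± 0.13, edgeR adjusted p = 0.373) passed. HSPD1 used 2824 to 3324 UMIs per library, with 3.54 to 5.75 reads per UMI, both ranges reaching the highest of the 10 members, so the collision correction weighs most on its level.

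HSPE1 stood at 669 CPM at 0 min, 504 at 60, 589 at 120, 396 at 240, 393 at 480, 380 at 600 and 487 CPM at 720 min. The libraries at 240, 480 and 600 min were lowest and lay within counting error of each other as neighbours, and that at 720 min stood 1.28 times (1.22 to 1.34) above that at 600 min. HSPE1 bent downward by -0.55 ± 0.15 (edgeR adjusted p = 0.0158). Its call was lost on leaving out 0 min (-0.54 with adjusted p = 0.0633), 240 min (-0.47 with adjusted p = 0.108) or 720 min (-0.445 with adjusted p = 0.132), and on the rank time scale (-0.37 with adjusted p = 0.0794). Only 1 of 7 HSPE1 UMI counts was whole (within 1e-06), so some of its reads were divided with another gene. The overlapping read-through gene HSPE1-MOB4 (111 to 168 CPM) had 0 of 7 whole counts, but which gene shared the reads was not tested. With HSPE1 and HSPE1-MOB4 counted together the bend was -0.51 (edgeR adjusted p = 0.0191).

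Although HSPD1 and HSPE1 share a promoter region, their transcripts did not keep a fixed ratio. Within a library, which needs no scaling, the ratio of HSPE1 to HSPD1 transcripts was 0.832 at 0 min, 0.644 at 60, 0.762 at 120, 0.667 at 240, 0.570 at 480, 0.584 at 600 and 0.770 at 720 min. The values at 480 min (95% interval 0.548 to 0.593) and 600 min (0.560 to 0.610) lay below that at 0 min (0.803 to 0.862) by more than counting error, and the ratio had a second low at 60 min (0.617 to 0.671). From UMI and read counts the values were on other levels, but 0 min was also highest and 480 and 600 min also lowest, at 0.756 and 0.740 from UMIs and 0.378 and 0.421 from reads. For the divergent pair no library at a given time was repeated, and this ratio has no test.

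TRAP1, the mitochondrial HSP90, was measured at 6 times: 121 CPM at 0 min, 86.7 at 60, 82.3 at 120, 71.5 at 240, 107 at 600 and 108 CPM at 720 min. The libraries at 60, 120 and 240 min were lowest, and that at 0 min highest. TRAP1 bent downward by -0.65 ± 0.21 (edgeR adjusted p = 0.0316). At 240 min it stood at 0.593 of the 0 min level (0.536 to 0.655), and at 720 min at 1.51 times the 240 min level (1.36 to 1.67). Leaving out 0 min (-0.34 with adjusted p = 0.389), 120 min (-0.61 with adjusted p = 0.0759) or 240 min (-0.48 with adjusted p = 0.314) ended its call, and the bend was -1.03 without that at 720 min (adjusted p = 0.00387).

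**Figure D2:**
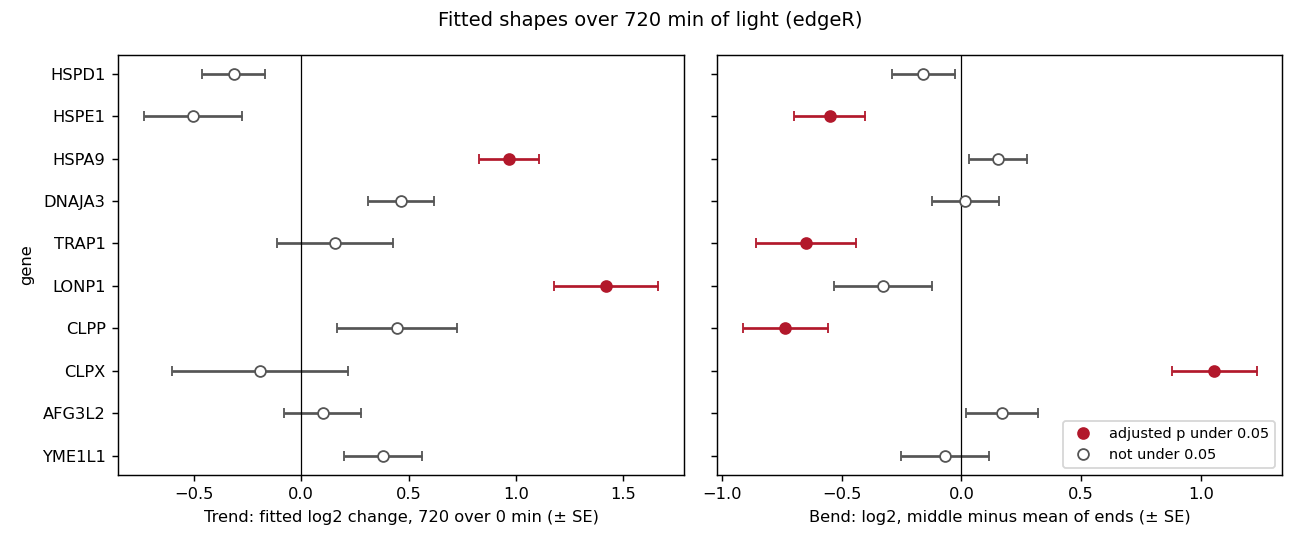
Fitted trend (left, log2 change of 720 over 0 min) and bend (right, log2) of each member with a standard error derived from edgeR's F statistic. Filled points have an adjusted p under 0.05. HSPA9 (0.97) and LONP1 (1.42) lie to the right in the left panel, and in the right panel CLPX (1.06) lies opposite CLPP (-0.73), TRAP1 (-0.65) and HSPE1 (-0.55).

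Among the proteases, LONP1, the matrix protease that removes oxidised and misfolded proteins, had the largest trend of the 10 members. Its level was 68.2 CPM at 0 min, 50.7 at 60, 53.1 at 120, 58.2 at 240, 106 at 480, 125 at 600 and 141 CPM at 720 min. The libraries at 60, 120 and 240 min stood below the unlit one, and those at 480, 600 and 720 min above it. LONP1 rose by 1.42 ± 0.24 on the fitted log2 scale (SE; adjusted p = 0.011, edgeR). At 60 min it was at 0.744 of the 0 min level (0.651 to 0.850), and at 720 min at 2.06 times that level (1.86 to 2.29) and 2.41 times the 240 min level (2.17 to 2.68). This call was lost on leaving out 60 min (1.34 with adjusted p = 0.0514), 600 min (1.37 with adjusted p = 0.0713) or 720 min (1.40 with adjusted p = 0.0512), and on the log time scale (1.19 with adjusted p = 0.111). Without 720 min LONP1 gained a downward bend (-0.745, edgeR adjusted p = 0.0491).

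CLPX, the ATPase that unfolds substrates, and CLPP, the peptidase chamber it feeds, moved in opposite directions. CLPX stood at 30.6 CPM at 0 min, 35.4 at 60, 48.4 at 120, 61.5 at 240, 47.7 at 480, 39.5 at 600 and 27.3 CPM at 720 min. It was highest at 240 min, at 2.01 times the 0 min level (1.73 to 2.34), and the libraries at 0 and 720 min did not differ beyond counting error. CLPX bent upward by 1.06 ± 0.18 (adjusted p = 0.00188, edgeR), and was called under each of 16 alternatives. Of the 16, counting HSPE1-MOB4 with HSPE1 does not change the CLPX counts. CLPP stood at 47.0 CPM at 0 min, 37.6 at 60, 33.9 at 120, 29.3 at 240, 35.9 at 480, 50.2 at 600 and 57.3 CPM at 720 min. It was lowest at 240 min, at 0.625 of the 0 min level (0.533 to 0.731), and the libraries at 60 to 480 min all lay below those at 0, 600 and 720 min. CLPP bent downward by -0.73 ± 0.18 (edgeR adjusted p = 0.00945). Leaving out 0 min (-0.62 with adjusted p = 0.0633) or 240 min (-0.65 with adjusted p = 0.0684) ended its call.

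The ratio of CLPX to CLPP transcripts within a library, chosen after their values were seen, was 0.652 at 0 min, 0.941 at 60, 1.43 at 120, 2.10 at 240, 1.33 at 480, 0.785 at 600 and 0.477 at 720 min. It was highest at 240 min (95% interval 1.81 to 2.44), where it was above 1, as at 120 and 480 min, and lowest at 720 min (0.402 to 0.564). UMI and read counts gave values inside the transcript intervals at every time. CLPX and CLPP rest on 207 to 558 and 265 to 438 transcripts per library, fewer than the other members except LONP1 in its lower libraries.

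**Figure D3:**
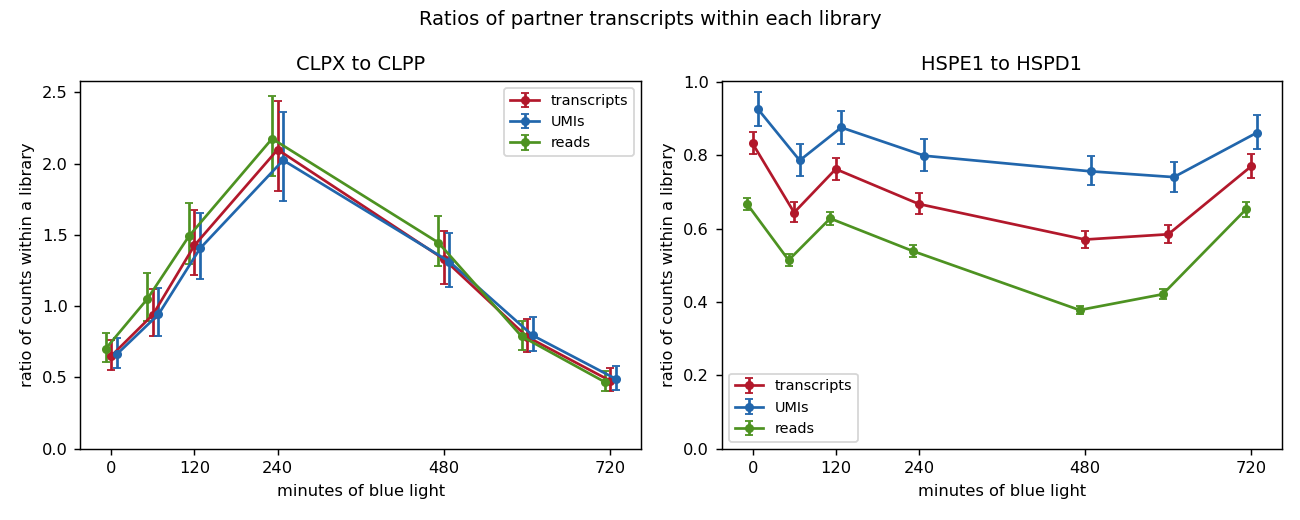
Ratio of CLPX to CLPP (left) and of HSPE1 to HSPD1 (right) within each library against minutes of light, from transcript, UMI and read counts, with exact binomial 95% intervals; points of the 3 units are shifted sideways for legibility. The CLPX to CLPP ratio is highest at 240 min (2.10 from transcripts) under each unit, and the HSPE1 to HSPD1 ratio is highest at 0 min and lower at 480 and 600 min.

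Neither inner membrane protease had a trend or bend that passed. AFG3L2, of the matrix-facing m-AAA protease, stood at 107 CPM at 0 min, 95.2 at 60, 112 at 120, 115 at 240, 124 at 480, 105 at 600 and 110 CPM at 720 min. All 6 neighbouring pairs in the order of its levels lay within counting error, and its highest level was 1.31 times its lowest, the smallest such range of the 10. YME1L1, of the i-AAA protease that faces the intermembrane space, stood at 162 CPM at 0 min, 140 at 60, 145 at 120, 151 at 240, 202 at 600 and 178 CPM at 720 min. The libraries at 600 and 720 min were its highest. Its trend of 0.38 ± 0.18 did not pass (edgeR adjusted p = 0.251), nor did that of AFG3L2 (0.10 ± 0.18, edgeR adjusted p = 0.794).

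Single times were set against 0 min without a test, counting a gene as different at 1.5-fold where either library held 50 counts or more. At 60 min 0 of 10 members were 1.5-fold higher (background 8.12% of genes) and 0 lower (4.52%). At 120 min CLPX was the 1 member higher (15.4%) and 0 were lower (12.7%). At 240 min CLPX was higher (1 of 10, background 22.8%), and HSPE1, TRAP1 and CLPP were lower (3 of 10, background 18.3%). At 480 min HSPA9, LONP1 and CLPX were higher (3 of 8, background 20.8%) and HSPE1 lower (1 of 8, background 17.3%). At 600 min HSPA9 and LONP1 were higher (2 of 10, background 15.3%) and HSPE1 lower (1 of 10, background 13.4%), and at 720 min HSPA9 and LONP1 were higher (2 of 10, background 12.9%) and 0 lower (13.1%). At 720 against 240 min LONP1, CLPP and TRAP1 were at least 1.5-fold higher (3 of 10, background 16.7%) and CLPX lower (1 of 10, background 22%).

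At the stricter 2-fold rule, 1 member, CLPX, was higher at 240 min (background 10.5% higher, 6.13% lower), and 1 member, LONP1, was higher at 720 min (4.94% higher, 4.64% lower). At 720 against 240 min LONP1 was higher (1 of 10, background 6%) and CLPX lower (1 of 10, background 9.38%). At 60 min (2.19% of genes higher, 0.411% lower), 120 min (5.63% higher, 3.11% lower), 480 min (9.63% higher, 6.4% lower) and 600 min (6.35% higher, 4.59% lower), 0 members passed in either direction.

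The median log2 ratio of the members to 0 min was -0.19 at 60 min, -0.11 at 120, -0.17 at 240, 0.27 at 480 (8 members), 0.20 at 600 and 0.09 at 720 min. The same median over all genes compared lay between -0.03 and 0.02. The median trend was 0.27 for the members and -0.02 for all genes, and the median bend -0.11 and 0.01. The 8 members measured at every time summed to 2189 CPM at 0 min, 1990 at 60, 2101 at 120, 1834 at 240, 2119 at 480, 2081 at 600 and 2238 CPM at 720 min. The summed level varied less than that of any of these 8 alone, and the members differed in direction rather than moving as a block. At 0 min HSPD1 (805 CPM), HSPE1 (669 CPM) and HSPA9 (302 CPM) were the largest parts of the sum. The sum therefore says little of the less abundant members, and no sum over other genes was set beside it. By the root mean square difference of log2 ratios, CLPP and TRAP1 were nearest to each other (0.248), as were AFG3L2 and YME1L1 (0.212), whereas HSPE1 and HSPA9 were farthest apart (1.08). Among 11014 other genes, VDAC2, the outer membrane channel gene, lay nearest to the median course of the members (0.0346), and UBE2G2 (0.0439), WDR61 (0.0543) and LOC341056 (0.0555) were also among the nearest; the median course is nearly flat.

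Other genes of the same machinery were taken from lists chosen by function, with earlier results of these data known. The list counts beside the background are therefore descriptive. Of 8 tested partners of mtHSP70 and the import motor, 3 rose (background 3.9% of genes) and 0 fell (background 2.96%; edgeR, 0 falling at an unadjusted p under 0.05 and 0 with DESeq2), with a median trend of 0.75. TIMM44, which tethers HSPA9 to the import channel, rose by 1.54 ± 0.17 (edgeR adjusted p = 0.00284) and held its call in all 17 alternatives. Of the 17, leaving out 480 min, where TIMM44 has no value, and counting HSPE1-MOB4 with HSPE1 do not change the TIMM44 counts. Its level was 46.4 CPM at 0 min, 52.0 at 60, 54.3 at 120, 66.2 at 240, 115 at 600 and 133 CPM at 720 min. DNAJC19, a J-domain protein of the motor, rose by 1.00 ± 0.19 (edgeR adjusted p = 0.0164), and HSCB, the J-protein of iron-sulfur cluster assembly, by 0.96 ± 0.24 (edgeR adjusted p = 0.0468). DNAJC19 lost its call without the library at 60, 120, 600 or 720 min and on the rank and log time scales (adjusted p from 0.0502 to 0.101), and HSCB kept its in 7 of 17 alternatives. GRPEL2, a nucleotide exchange factor of HSPA9, bent upward by 1.54 ± 0.26 (edgeR adjusted p = 0.00242) and was highest, like CLPX, at 240 min. It stood at 31.3 CPM at 0 min, 51.2 at 60, 90.0 at 120, 115 at 240, 96.3 at 480, 63.9 at 600 and 53.8 CPM at 720 min. DNLZ, the escort protein that keeps HSPA9 soluble, bent downward by -0.79 ± 0.22 (edgeR adjusted p = 0.0167), lost on leaving out 0 or 240 min (adjusted p of 0.0691 to 0.145).

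Of 13 other mitochondrial proteases, 0 rose (background 3.9% of genes) and 0 fell (background 2.96%) with edgeR. At an unadjusted p under 0.05 edgeR had 1 higher and 2 lower, and DESeq2 called 1 each. Bends were upward for 2 (background 17.5%, so a share near the background) and downward for 0 (background 13.7%). For downward bends edgeR had 1 at an unadjusted p under 0.05, and DESeq2 called 0. LACTB bent upward by 1.17 ± 0.22 (edgeR adjusted p = 0.00269), standing at 38.9 CPM at 0 min, 79.0 at 240 and 19.3 CPM at 720 min. OMA1, the stress-activated inner membrane protease that starts the mitochondrial arm of the ISR in human cells, bent upward by 0.82 ± 0.19 (edgeR adjusted p = 0.00605), lost on leaving out 0 or 240 min (adjusted p of 0.0593 to 0.103). Of 8 inner membrane scaffolds and other chaperones, 0 rose (background 3.9% of genes) and 0 fell (background 2.96%) with edgeR. At an unadjusted p under 0.05 edgeR also had 0, and DESeq2 called 0. Bends were upward for 1 (background 17.5%) and downward for 1 (background 13.7%), shares near the background. PHB, a prohibitin that forms a ring around the m-AAA protease, bent downward by -0.94 ± 0.16 (edgeR adjusted p = 0.0018). The call held in all 16 alternatives. Of the 16, leaving out 480 min, where PHB has no value, and counting HSPE1-MOB4 with HSPE1 do not change the PHB counts. PHB stood at 318 CPM at 0 min, 176 at 240 and 328 CPM at 720 min. TTC19 bent upward by 0.63 ± 0.18 (edgeR adjusted p = 0.0204), lost on leaving out 0, 240 or 720 min (adjusted p of 0.0654 to 0.125). Of 19 genes of the TOM and TIM import channels, 8 bent downward (background 13.7% of genes) and 0 upward (background 17.5%) with edgeR. For upward bends edgeR had 1 at an unadjusted p under 0.05, and DESeq2 called 0. Trends numbered 0 with edgeR (background 6.86% in either direction). At an unadjusted p under 0.05 edgeR had 3 higher, and DESeq2 called 1. TIMM50 bent by -1.04 ± 0.20 (edgeR adjusted p = 0.00269), TOMM40 by -0.65 ± 0.17 and TIMM21 by -0.87 ± 0.24. TOMM40 and TIMM21 lost their calls on leaving out 0 or 240 min.

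Beside the mitochondrial genes, 13 of 16 genes listed as transcription factors and targets of mitochondrial stress rose (background 3.9% of genes). Falling trends numbered 0 (background 2.96%), also 0 at an unadjusted p under 0.05 with edgeR and 0 with DESeq2. The list includes genes of the ISR, of which eIF2 phosphorylation by PKR is the first step, and mitochondrial stress itself was not measured. Of the 16, 7 bent upward (background 17.5% of genes) and 2 downward (background 13.7%). The upward bends include rises that levelled off without a return. The median trend of the 16 was 1.72, against 0.27 for the 10 members, among which HSPA9 had 0.97 and LONP1 1.42. SHMT2, a mitochondrial enzyme of serine and folate metabolism, rose by 1.41 ± 0.16 (edgeR adjusted p = 0.00326), with 127 CPM at 0 min, 160 at 240 and 313 CPM at 720 min. The ISR genes TRIB3 and ASNS had the smallest p of this list. HSF1, the heat shock transcription factor, bent downward by -0.70 ± 0.19 (edgeR adjusted p = 0.0159), lost on leaving out 0 or 240 min (adjusted p of 0.0904 to 0.112). Of 11 biogenesis factors, 0 rose (background 3.9% of genes) and 0 fell (background 2.96%) with edgeR. At an unadjusted p under 0.05 edgeR had 2 higher and 1 lower, and DESeq2 called 1 higher. Upward bends numbered 3 (background 17.5%), among them GABPA by 0.85 ± 0.16 (edgeR adjusted p = 0.00281). Downward bends numbered 1 (background 13.7%), and these shares are near the background. The downward one, ESRRA, lost its call on leaving out 0, 240 or 720 min (adjusted p of 0.0501 to 0.0672).

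Among 11 chaperones of the cytosol, 4 fell (background 2.96% of genes) and 0 rose (background 3.9% of genes; edgeR, 0 rising at an unadjusted p under 0.05 and 0 with DESeq2), and 6 bent downward (background 13.7% of genes). HSPH1 fell by 1.10 on the log2 scale (SE 0.155, edgeR adjusted p = 0.00518), a call lost on the log time scale (adjusted p = 0.0517). HSPA8, the constitutive cytosolic HSP70, bent downward by -0.82 ± 0.12 (edgeR adjusted p = 0.00116), with 1601 CPM at 0 min, 711 at 480 and 1082 CPM at 720 min, whereas its mitochondrial relative HSPA9 rose. HSPA1A and HSPA1B also bent downward; these near-identical copies are uncertain. HSPA1A lost its call on the rank time scale (adjusted p = 0.0512), and HSPA1B there and on leaving out 240 min (adjusted p of 0.0589 to 0.0621). Of 10 ER chaperones, 1 rose (background 3.9% of genes) and 0 fell (background 2.96%) with edgeR. Downward bends numbered 2 (background 13.7%, so a share near the background) and upward bends 0 (background 17.5%). At an unadjusted p under 0.05 edgeR had 1 falling and 0 bending upward, and DESeq2 called 0 of each. DNAJB9 rose (1.82 ± 0.29, edgeR adjusted p = 0.00864), and CALR and SDF2L1 bent downward. CALR lost its call on leaving out 0 or 240 min (adjusted p of 0.0758 to 0.0866). DNAJB9 lost its call without the library at 600 min (adjusted p = 0.0583).

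**Figure D4:**
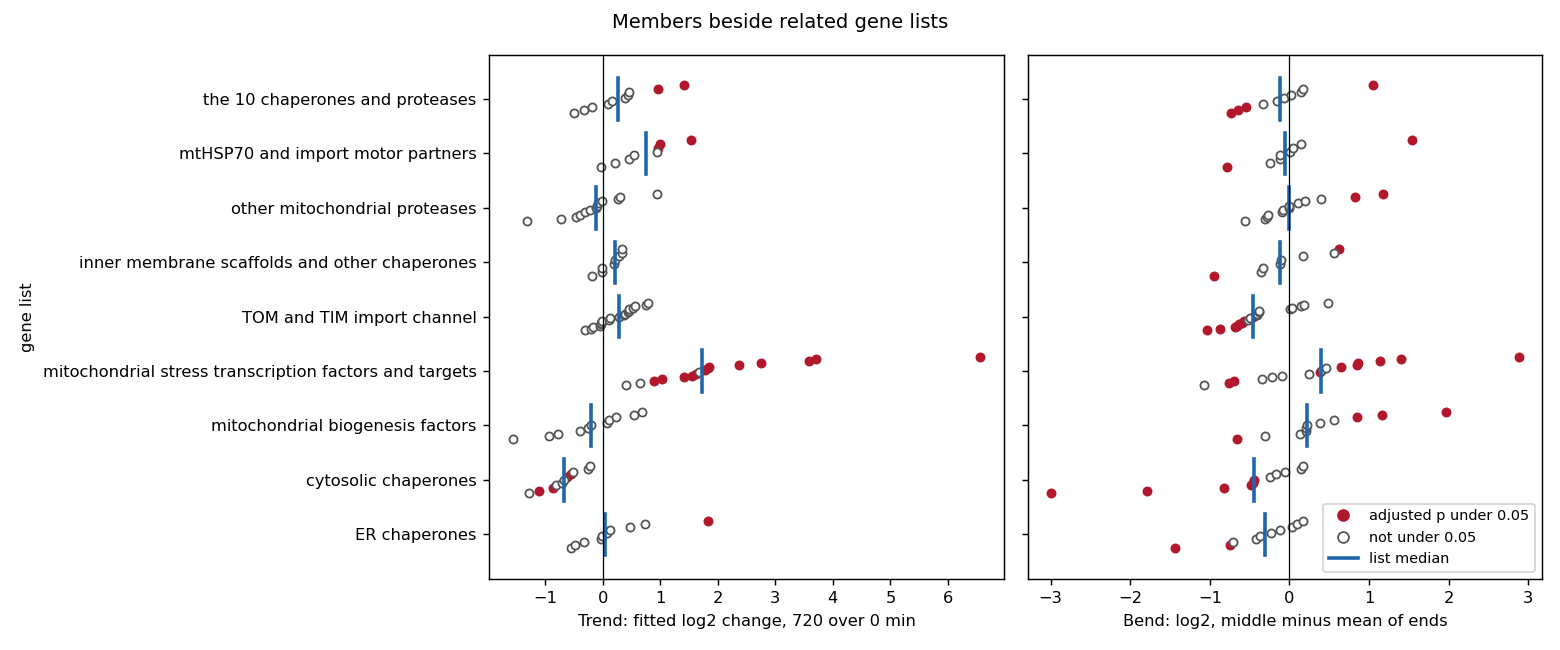
Trend (left, fitted log2 change of 720 over 0 min) and bend (right, log2) of each tested gene, 1 row of points per gene list, with filled points for an adjusted p under 0.05 (edgeR) and a vertical line at each list's median. In the left panel the median of the stress factors and targets (1.72) lies to the right of that of the 10 chaperones and proteases (0.27), and that of the cytosolic chaperones (-0.67) to the left; the rightmost trend point is FGF21, which had 0 counts at 0 and 60 min, so its fitted change depends on the prior count.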

How the data were processed

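The authors deposited 3 tables per library, of reads, UMIs and transcripts by gene and barcode, in units of expected counts, which can be fractional. The column of barcode 4, the primer named per the labels' protocols, was used; the other 95 were not. The submitters' processing notes name BWA and hg19; versions, the annotation and the counter are not given in the sources used. UMI collisions are corrected for in the deposited transcript counts.

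Transcript counts were rounded. Robust quasi-likelihood fits (edgeR 4.0.16, R 4.3.3) took genes that reached 10 counts in 3 or more libraries, on 7 libraries, or on 6 for genes named after the end of the 480 min table. TMM used the 6 complete libraries; that of 480 min was scaled to them by the genes it lists. Residual degrees of freedom were 5 or 4 (trend) and 4 or 3 (bend). Each SE is the absolute estimate divided by the square root of the edgeR F statistic. Fold intervals are exact binomial, level intervals Poisson, both 95%; they take corrected counts as plain counts. ERCC spike-ins, which name no gene, held at most 0.0124% of reads and were left out.

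The members, lists and alternatives were chosen with earlier results of these data known. All 10 members are named, of each list at most the 3 called genes of smallest p per shape and direction, and genes among the 5 nearest to the median course; items withheld are not reported here. DESeq2 1.42.0 was an alternative.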

Additional observations from a re-analysis of the deposited data

How the results depend on the processing

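With 1 library per time, each library was left out in place of a replicate. No paired analysis was possible because each time has 1 library and the labels give no shared replicate numbers. Rising members numbered 2, against 1 on the log time scale and 1 to 2 over the fits that leave out a library. Members bending downward numbered 3, against 0 to 3 over those fits (0 when 0 min or 240 min was left out). Genes with a trend numbered 930, against 1572 with DESeq2 and 135 (600 min left out) to 1481 (0 min left out); leaving out 60, 120 or 720 min gave 282, 354 and 469. Genes with a bend numbered 4238, against 1320 (240 min left out) to 4307 (600 min left out), with 1933 when 0 min was left out. The cause was not tested.

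Signs turned only for fits that were not called. The bend that LONP1 gained without 720 min kept its sign (-0.745, against -0.326 in the main fit). On the log time scale the trend of TRAP1 was -0.0798 and that of CLPX 0.236; over the fits that leave out a library the CLPX trend ranged from -0.553 to 0.31. The bend of DNAJA3 was -0.0157 with UMI counts, -0.0402 on the rank time scale and -0.00459 after thinning, and ranged from -0.0906 to 0.23 (-0.0445 without 0 min). On the rank time scale the bend of HSPA9 was -0.0178. Over the fits that leave out a library, bends ranged from -0.31 to 0.00778 for HSPD1, from -0.745 to 0.00425 for LONP1 and from -0.355 to 0.163 for YME1L1 (0.0563 without 240 min).

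At the 1.5-fold rule, read counts gave 1 lower member at 60 min and 1 at 120 min, and UMI counts gave 1 higher and 0 lower at both 480 and 600 min and 2 lower at 240 min. At 720 min read counts and RLE size factors each gave 3 higher. The shares of all genes under these alternatives are not given here, so these member counts have no background beside them. From 0 to 720 min in order, the HSPE1 to HSPD1 ratio was 0.925, 0.785, 0.875, 0.798, 0.756, 0.740 and 0.861 from UMIs, and 0.667, 0.514, 0.627, 0.538, 0.378, 0.421 and 0.652 from reads. Of 232 member folds under alternatives, 30 moved beyond their counting interval. UMI counts saturate for abundant genes, and low counts limit CLPX and CLPP.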
